A study of Homo sapiens with 4 samples.

Results

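The miR-23, miR-27 and miR-24 clusters are a pair of paralogous groups of microRNA genes, the miR-23a/27a/24-2 cluster on chromosome 19 and the miR-23b/27b/24-1 cluster on chromosome 9. Their 6 mature miRNAs described here, hsa-miR-23a-3p, hsa-miR-27a-3p, hsa-miR-27a-5p, hsa-miR-23b-3p, hsa-miR-27b-3p and hsa-miR-24-3p, were taken by name from 1619 miRNAs listed for extracellular vesicles (EVs), of which 539 were listed for both replicates. They were chosen by cluster membership with their read counts in glucose-free against complete medium, within each replicate number, already known, so that difference is described for the members, with no p-value for any of them, and nothing is read from whether they pass a test of it.

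The vesicles came from MDA-MB-231 cells, an established human triple-negative breast cancer line of basal type, wild type in all 4 libraries. For the complete-medium EVs, cells were cultured for 12 h in complete medium cleared of serum EVs; for the glucose-free EVs (-G in the labels), cells were cultured for 12 h without glucose. Each group held 2 small RNA libraries from vesicles pelleted by ultracentrifugation. The replicate number also marked the library preparation: the RNA of replicate 1 was pretreated to remove modifications and inserts of 14 to 40 nt were sequenced, while replicate 2 was made with the NEBNext small RNA kit, so that replicate and preparation cannot be told apart. Each preparation therefore held 1 library of each medium, called pair 1 and pair 2 below, and all results concern 1 cell line.

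A microRNA is cut from the arms of an RNA hairpin and recognises messenger RNAs mainly through its seed, the bases next to its 5′ end. The hairpins of a cluster are carried on a shared primary transcript, and the amount of each mature product then depends on its own processing and stability. miR-23a and miR-23b are known repressors of mitochondrial glutaminase and are themselves repressed by MYC, miR-27 is known for its targets in lipid metabolism and adipocyte differentiation, and miR-24 for targets in the cell cycle. Vesicles carry a selection of a cell's small RNAs, so the values below are levels in vesicles and not in the cells.

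The mature sequences below, from RefSeq (GRCh38.p14), show how closely the 2 clusters resemble each other and which member is distinct; capitals mark the seed, bases 2 to 8.
hsa-miR-23a-3p: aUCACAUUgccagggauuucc
hsa-miR-23b-3p: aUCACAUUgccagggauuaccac
hsa-miR-27a-3p: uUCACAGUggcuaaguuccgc
hsa-miR-27b-3p: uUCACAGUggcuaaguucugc
hsa-miR-24-3p: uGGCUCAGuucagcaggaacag
hsa-miR-27a-5p: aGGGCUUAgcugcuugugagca

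The miR-23 pair shared 1 seed and the miR-27 pair another, while hsa-miR-24-3p and hsa-miR-27a-5p each had a seed of their own. Counting from 1 at the 5′ end, hsa-miR-23a-3p and hsa-miR-23b-3p differed by U19A and by the 2 further bases at the 3′ end of hsa-miR-23b-3p. hsa-miR-27a-3p and hsa-miR-27b-3p differed by C19U alone. A read that ended before base 19 could not tell the paralogs of either pair apart, and how such reads were assigned is not given in the sources used here. hsa-miR-24-3p had the same sequence in MIR24-1 and MIR24-2, so its reads belonged to both clusters and could not be divided between them.

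In GRCh38.p14, MIR23A lay at chr19:13836587-13836659, MIR27A at chr19:13836440-13836517 and MIR24-2 at chr19:13836287-13836359, all on the minus strand and within 373 bases. In the GENCODE v29 annotation each of these 3 hairpins overlapped 1 exon of AC020916.1, a long noncoding RNA gene on the same strand. MIR23B lay at chr9:95085208-95085304, MIR27B at chr9:95085445-95085541 and MIR24-1 at chr9:95086021-95086088, on the plus strand and within 881 bases. MIR23B and MIR27B were intronic in C9orf3, whereas MIR24-1 overlapped 1 of its exons. The gaps between neighbouring hairpins were 69 and 80 bases in the miR-23a cluster and 140 and 479 bases in the miR-23b cluster.

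**Figure D1:**
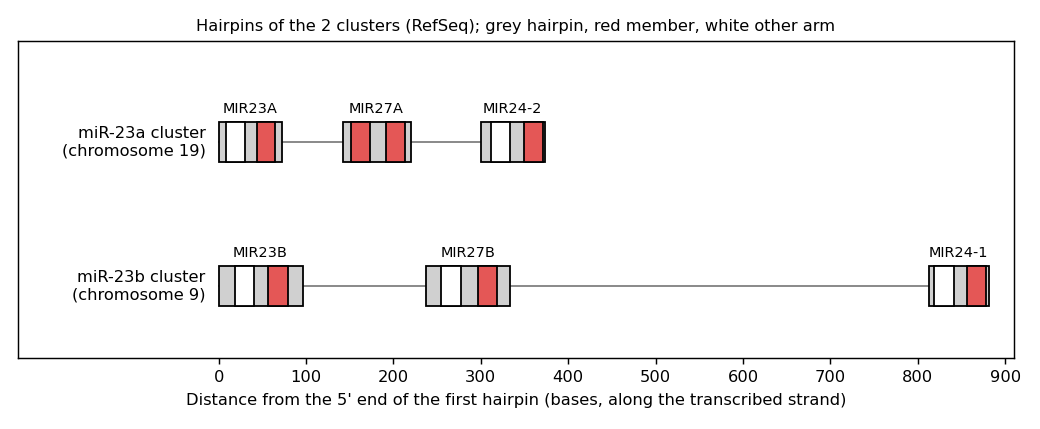
Map of the hairpins of both clusters, drawn to scale as the distance in bases from the 5′ end of the first hairpin along the transcribed strand. Grey boxes are hairpins, red boxes the 6 members described here (hsa-miR-24-3p is drawn in both clusters) and white boxes the opposite arms; the miR-23a cluster spans 373 bases and the miR-23b cluster 881.

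Depth differed far more between the preparations than between the media. The library totals were 18397 reads in complete-medium replicate 1, 15597 in glucose-free replicate 1, 224966 in complete-medium replicate 2 and 170894 in glucose-free replicate 2, so that 1 read was worth 54.4, 64.1, 4.45 and 5.85 CPM (reads scaled by the library total), respectively. hsa-miR-182-5p took 51.0% of the reads of complete-medium replicate 1 but 2.73% of glucose-free replicate 1 and at most 0.254% of the replicate 2 libraries, and every pair 1 ratio to the library total moves with it. The 4 basal markers, all above 0 in every library, summed to 2.09% and 3.01% of reads in replicate 1 and to 35.9% and 28.7% in replicate 2 (complete medium first). Most of these reads were hsa-miR-21-5p, which alone took 1.94% and 2.76% in replicate 1 and 30.2% and 23.3% in replicate 2. In replicate 1 it held 356 of 385 and 430 of 469 basal-list reads, where the luminal list had 16 and 54 reads. The 5 luminal markers summed to between 0.0135% and 0.346%, with hsa-miR-205-5p at 0 in complete-medium replicate 1. The 3 red blood cell markers, hsa-miR-451a above all, summed to 20.0% and 42.8% in replicate 1 against 0.218% and 0.0679% in replicate 2. The part of these markers and of depth in the results was not tested.

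The 6 members together summed to 67 reads in complete-medium replicate 1, 119 in glucose-free replicate 1, 6459 in complete-medium replicate 2 and 7981 in glucose-free replicate 2. As shares of all reads these were 0.364% (95% Wilson interval 0.287 to 0.462), 0.763% (0.638 to 0.912), 2.87% (2.80 to 2.94) and 4.67% (4.57 to 4.77). Intervals here and below are 95% intervals that cover counting error only. The ratio of glucose-free to complete medium was 2.09 (1.54 to 2.87) in pair 1, or 1.06 (0.776 to 1.45) once hsa-miR-182-5p was taken from the totals, and 1.63 (1.57 to 1.68) in pair 2. The clusters were a larger share in either replicate 2 library than in either replicate 1 library.

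Among the members of the chromosome 19 cluster, hsa-miR-23a-3p had 3 reads in complete-medium and 16 in glucose-free EVs of replicate 1, then 2977 and 3271 in replicate 2, which is 163, 1026, 13233 and 19141 CPM. It ranked 148th and 80th in the replicate 1 libraries and 16th and 13th in those of replicate 2. Its partner hsa-miR-27a-3p had 9, 31, 1307 and 2380 reads in the same order, or 489, 1988, 5810 and 13927 CPM. For both guide strands the glucose-free library stood above the complete-medium library of its own pair, but both replicate 1 libraries stood below both replicate 2 libraries. hsa-miR-27a-5p, cut from the opposite arm of the MIR27A hairpin, had 1, 0, 36 and 14 reads, or 54.4, 0, 160 and 81.9 CPM. It was the lowest member in every library, and its count of 0 in glucose-free replicate 1 allows a level of up to 192 CPM by the limit of 3 reads used for counts of 0.

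In the chromosome 9 cluster, hsa-miR-23b-3p had 8, 7, 305 and 297 reads, or 435, 449, 1356 and 1738 CPM. Its partner hsa-miR-27b-3p had 38, 41, 691 and 832 reads, or 2066, 2629, 3072 and 4869 CPM. The levels of hsa-miR-23b-3p in pair 1 differed by less than the counting error (220 to 858 CPM in complete-medium EVs and 217 to 926 CPM in glucose-free EVs). As the ratio of the highest to the lowest level, hsa-miR-27b-3p had the narrowest range over the 4 libraries of the 5 members with reads in all of them. hsa-miR-24-3p, common to both clusters, had 8, 24, 1143 and 1187 reads, or 435, 1539, 5081 and 6946 CPM, and ranked 89th, 59th, 27th and 22nd.

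**Figure D2:**
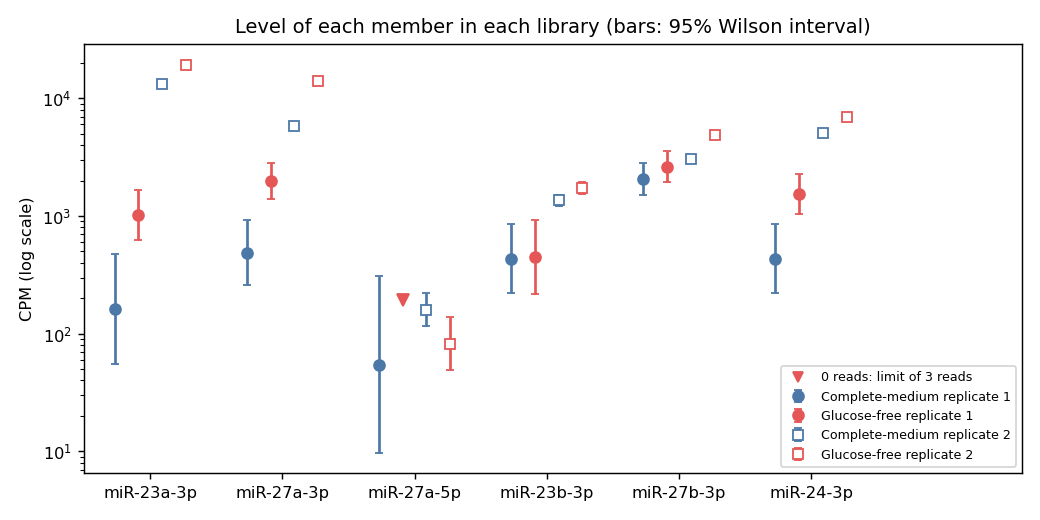
Level of each member in each library in CPM (log axis), with 95% Wilson intervals as bars and a triangle at the limit of 3 reads for the count of 0. The replicate 1 libraries lie below those of replicate 2 for hsa-miR-23a-3p (163 and 1026 against 13233 and 19141 CPM), whereas hsa-miR-27b-3p runs from 2066 to 4869 CPM.

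The order of the members depended on the preparation. Mature lengths were 21 to 23 nt and a read was taken to stand for a whole molecule, so CPM levels were compared without a length correction. In both replicate 2 libraries the order from the highest down was hsa-miR-23a-3p, hsa-miR-27a-3p, hsa-miR-24-3p, hsa-miR-27b-3p, hsa-miR-23b-3p and hsa-miR-27a-5p, with no overlap between the intervals of neighbours; the closest were hsa-miR-27a-3p (5504 to 6132 CPM) and hsa-miR-24-3p (4795 to 5383 CPM) in complete-medium EVs. In replicate 1, hsa-miR-27b-3p stood first in both libraries. In glucose-free replicate 1 its interval (1938 to 3564 CPM) overlapped those of hsa-miR-27a-3p (1401 to 2820) and hsa-miR-24-3p (1034 to 2289). In complete-medium replicate 1 the intervals of hsa-miR-27a-3p, hsa-miR-24-3p, hsa-miR-23b-3p and hsa-miR-23a-3p all overlapped, so that these levels could not be ordered at that depth.

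Relative to the library totals, the 5 members with reads in all 4 libraries were higher in glucose-free EVs than in complete-medium EVs within both pairs, where 31.8% of the 154 miRNAs with reads in all libraries did the same and 9.74% were lower in both. This count depended on the scaling: once the reads of hsa-miR-182-5p were taken from the totals, 3 of the 5 were higher in both pairs (background 14.9%). hsa-miR-23b-3p and hsa-miR-27b-3p then fell below 1 in pair 1. TMM or DESeq2 size factors also gave 3, with no background share taken for them. The rule that chose the members used these differences, so nothing is read from the counts. The median glucose-free to complete-medium ratio of the 5 members was 3.54 in pair 1, against 1.58 over the 154 miRNAs, and 1.45 against 0.980 in pair 2. Totals without hsa-miR-182-5p gave 1.78 against 0.798 in pair 1.

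Of the 5 members, hsa-miR-23a-3p had the largest ratio in pair 1 and hsa-miR-27a-3p in pair 2, both of the chromosome 19 cluster. hsa-miR-27a-3p was higher in glucose-free EVs by a ratio of 4.06 (exact interval 1.89 to 9.70) in pair 1 and 2.40 (2.24 to 2.57) in pair 2. Its pair 1 ratio was 2.05 (0.951 to 4.89) without hsa-miR-182-5p. hsa-miR-23a-3p had a ratio of 6.29 (1.80 to 33.7) in pair 1, which rested on 3 reads in complete-medium EVs and was 3.17 (0.907 to 17.0) without hsa-miR-182-5p, and 1.45 (1.38 to 1.52) in pair 2. The order of these partners was thus opposite in the pairs, and the difference was not tested. hsa-miR-27a-5p went the other way in pair 2, with a ratio of 0.512 (0.255 to 0.973), and was at 1 and 0 reads in pair 1, which gives no fold.

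The chromosome 9 members had smaller ratios in pair 1. hsa-miR-27b-3p had a ratio of 1.27 (0.798 to 2.03) in pair 1, or 0.641 (0.402 to 1.02) without hsa-miR-182-5p, and 1.59 (1.43 to 1.76) in pair 2. hsa-miR-23b-3p had 1.03 (0.319 to 3.26) in pair 1, or 0.520 (0.161 to 1.64) without hsa-miR-182-5p, and 1.28 (1.09 to 1.51) in pair 2. In pair 1 neither was separated from equal levels by its interval. hsa-miR-24-3p lay between the clusters in pair 1, with a ratio of 3.54 (1.54 to 9.11), or 1.78 (0.775 to 4.59) without hsa-miR-182-5p, and had 1.37 (1.26 to 1.48) in pair 2.

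**Figure D3:**
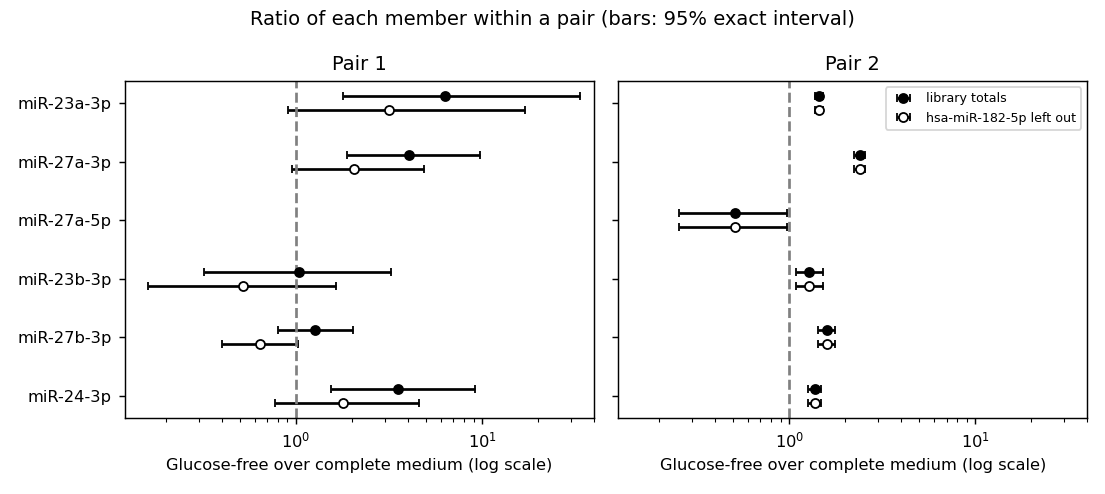
Ratio of glucose-free EVs to complete-medium EVs for each member within each pair (log axis), with 95% exact conditional intervals as bars; the dashed line marks equal levels. Filled points use the library totals and open points totals that omit hsa-miR-182-5p. In pair 2 the ratios run from 0.512 (hsa-miR-27a-5p) to 2.40 (hsa-miR-27a-3p), and the intervals are narrower than in pair 1; in pair 1 hsa-miR-23b-3p (1.03) and hsa-miR-27b-3p (1.27) have intervals that contain 1 on the library totals, and both fall below 1 on the other totals.

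Across all miRNAs, edgeR's quasi-likelihood test between the media, with the replicate number as a block, called 0 of the 384 miRNAs tested (0%), 0 of the 6 members among them, and no p is given for a member because this contrast was known when the members were chosen. 5 of the 384 had an unadjusted p under 0.05, and DESeq2 and limma also called 0, with 6 and 13 such miRNAs. The fitted log2 differences, glucose-free minus complete medium, were 1.60 ± 0.93 (SE, n = 2 per group) for hsa-miR-27a-3p and 1.35 ± 0.96 for hsa-miR-23a-3p. They were 1.06 ± 0.95 for hsa-miR-24-3p, 0.51 ± 0.91 for hsa-miR-27b-3p, 0.23 ± 1.02 for hsa-miR-23b-3p and -1.20 ± 1.66 for hsa-miR-27a-5p, for which limma on log2(CPM + 1) gave -3.37 ± 1.68, a value that rests on the pseudocount at 1 and 0 reads in pair 1. Their median was 0.78, and that of all 384 miRNAs was 0.20; with TMM size factors the medians were 0.35 and -0.14.

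The ratio of cluster partners within a library needs no scaling, because the library total cancels. The reads of hsa-miR-27a-3p over those of hsa-miR-23a-3p were 3 (0.749 to 17.2) in complete-medium replicate 1, 1.94 (1.03 to 3.79) in glucose-free replicate 1, 0.439 (0.411 to 0.469) in complete-medium replicate 2 and 0.728 (0.690 to 0.767) in glucose-free replicate 2. Between the libraries of pair 2, the ratio of these neighbours on chromosome 19 changed 1.66-fold (1.52 to 1.80) towards hsa-miR-27a-3p. In pair 1 the change was 0.646 (0.0995 to 3.11), an interval that includes both equal change and the value of pair 2. Pooled over the pairs by the Mantel-Haenszel method the change was 1.65.

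For the chromosome 9 partners, hsa-miR-27b-3p over hsa-miR-23b-3p was 4.75 and 5.86 in replicate 1 and 2.27 (1.98 to 2.60) and 2.80 (2.45 to 3.21) in replicate 2, complete medium first. The change with the medium was 1.23 (0.352 to 4.41) in pair 1, 1.24 (1.02 to 1.50) in pair 2 and 1.24 pooled. In pair 2 the miR-27 product thus gained on the miR-23 product in both clusters, by 1.66-fold and 1.24-fold.

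Products of 1 seed were also summed over the clusters. The miR-23 seed pair had a glucose-free to complete-medium ratio of 1.43 (1.36 to 1.50) in pair 2 and the miR-27 seed pair one of 2.12 (2.00 to 2.24). In pair 1 the values were 2.47 (1.15 to 5.60) and 1.81 (1.23 to 2.67), or 1.24 (0.582 to 2.82) and 0.911 (0.622 to 1.34) without hsa-miR-182-5p. The order of the seeds on the library totals was thus opposite in the pairs, and the difference was not tested.

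For hsa-miR-24-3p, the ratios to the miR-23 members moved less in pair 2 than that to hsa-miR-27a-3p. Its ratio to hsa-miR-23a-3p changed 0.945-fold (0.858 to 1.04) and that to hsa-miR-23b-3p 1.07-fold (0.888 to 1.28), whereas that to hsa-miR-27a-3p changed 0.570-fold (0.512 to 0.635), from 0.875 to 0.499. In pair 1 these changes were 0.563 (0.0844 to 2.85), 3.43 (0.781 to 15.1) and 0.871 (0.255 to 3.03), respectively, with intervals too wide to order them. Against hsa-miR-27b-3p it changed 0.863-fold (0.756 to 0.984) in pair 2 but 2.78-fold (1.04 to 7.99) in pair 1, from 0.211 to 0.585. These opposite directions were seen without a test of the difference between the pairs. The changes of partner ratios with the medium belong to the contrast known when the members were chosen, and their intervals compare 2 libraries and not the media.

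**Figure D4:**
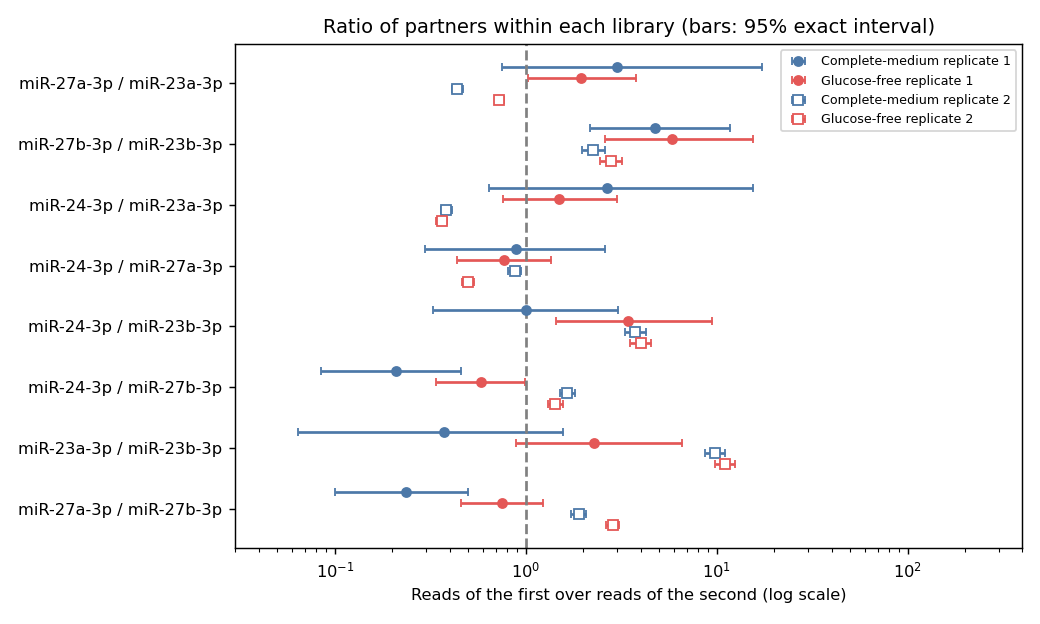
Ratio of reads between cluster partners or paralogs within each library (log axis; bars are 95% exact intervals; filled points replicate 1, open squares replicate 2; blue complete medium, red glucose-free). hsa-miR-27a-3p over hsa-miR-23a-3p lies above 1 in replicate 1 (3 and 1.94) and below 1 in replicate 2 (0.439 and 0.728), whereas hsa-miR-23a-3p over hsa-miR-23b-3p rises from 0.375 in complete-medium replicate 1 to 11.0 in glucose-free replicate 2.

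The paralogs were compared next, hsa-miR-23a-3p with hsa-miR-23b-3p and hsa-miR-27a-3p with hsa-miR-27b-3p, with the limit that they differ by U19A and the 3′ end or by C19U, respectively. The ratio of hsa-miR-27a-3p to hsa-miR-27b-3p was 0.237 (0.101 to 0.498) and 0.756 (0.458 to 1.24) in pair 1 and 1.89 (1.72 to 2.08) and 2.86 (2.64 to 3.10) in pair 2, complete medium first. It was higher in glucose-free EVs in both pairs, 3.19-fold (1.26 to 8.57) and 1.51-fold (1.34 to 1.71). For hsa-miR-23a-3p over hsa-miR-23b-3p the ratios were 0.375 and 2.29 in pair 1 and 9.76 and 11.0 in pair 2. The change was 6.10-fold (1.00 to 44.1) in pair 1, from 3 and 8 reads in complete-medium EVs, and 1.13-fold (0.951 to 1.34) in pair 2, where equal change lay within the interval.

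Without hsa-miR-24-3p, which belongs to both, the chromosome 19 cluster held 22.0% (13.4 to 34.1) of the reads of the clusters in complete-medium replicate 1, 13 of 59 reads. Its share was 49.5% (39.6 to 59.4) in glucose-free replicate 1, 47 of 95 reads, 81.3% (80.2 to 82.3) in complete-medium replicate 2 and 83.4% (82.5 to 84.2) in glucose-free replicate 2. The share was higher in glucose-free EVs in both pairs, with an odds ratio of 3.46 (1.58 to 7.87) in pair 1 and 1.16 (1.05 to 1.27) in pair 2. The difference between the preparations was larger than that between the media. The summed reads of the chromosome 9 pair, hsa-miR-23b-3p and hsa-miR-27b-3p, were 46 and 48 in pair 1 and 996 and 1129 in pair 2.

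**Figure D5:**
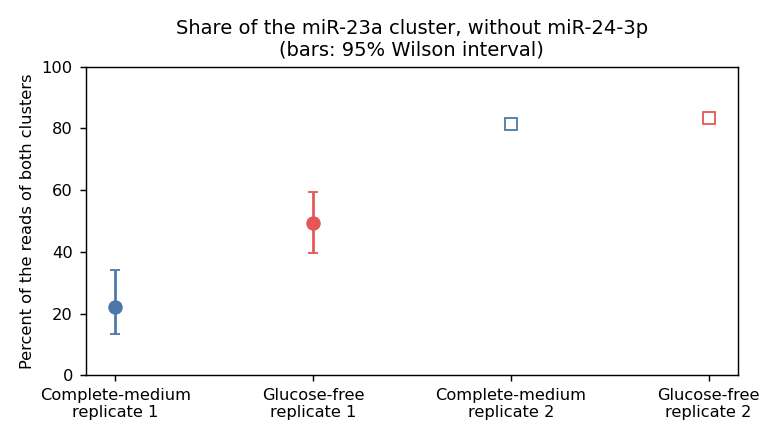
Share of the miR-23a cluster (hsa-miR-23a-3p, hsa-miR-27a-3p and hsa-miR-27a-5p) in the reads of both clusters, hsa-miR-24-3p left out, in percent from 0 with 95% Wilson intervals. The share is 22.0% and 49.5% in replicate 1 and 81.3% and 83.4% in replicate 2, complete medium first.

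The 2 arms of the MIR27A hairpin moved in opposite directions in pair 2. hsa-miR-27a-3p, the predominant arm, outnumbered hsa-miR-27a-5p by 36.3 to 1 (26.1 to 52.1) in complete-medium replicate 2 and by 170 to 1 (101 to 311) in glucose-free replicate 2, a 4.68-fold change (2.45 to 9.43). In replicate 1 the 3p arm had 9 and 31 reads against 1 and 0 for the 5p arm, too few to show a change of that size. The opposite arms of the other hairpins were close to the limit of detection. hsa-miR-23a-5p had 0, 0, 1 and 3 reads and hsa-miR-27b-5p 1, 0, 4 and 2. hsa-miR-23b-5p, listed for replicate 2 alone, had 1 and 0 reads.

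The 5p arms of the miR-24 hairpins differ in sequence, unlike hsa-miR-24-3p, and so could show which locus a product came from.
hsa-miR-24-1-5p: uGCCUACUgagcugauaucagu
hsa-miR-24-2-5p: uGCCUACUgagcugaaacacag
They shared a seed and differed at 6 positions, the first at base 16. Both were listed for replicate 1 alone. hsa-miR-24-1-5p had 0 reads in both libraries, and hsa-miR-24-2-5p, from chromosome 19, had 0 reads in complete-medium EVs and 4 in glucose-free EVs (256 CPM, 99.7 to 659), near the 3-read limit of 163 CPM in complete-medium EVs. The products of MIR3074, a hairpin on the strand opposite to MIR24-1, had at most 1 read in any library (0, 0, 1 and 0 for hsa-miR-3074-5p; 1, 1, 1 and 0 for hsa-miR-3074-3p).

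Seed relatives outside the clusters were compared because they can share targets with the members. The sequences show the shared letters, with the seed in capitals.
hsa-miR-23c: aUCACAUUgccagugauuaccc
hsa-miR-128-3p: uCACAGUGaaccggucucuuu
hsa-miR-23c, from an intron of MAP7D2 on chromosome X, carried the miR-23 seed and differed from hsa-miR-23b-3p by G14U and A22C over its length. It had 6, 2, 1 and 1 reads, so that the miR-23 seed in replicate 2 was read almost wholly from the cluster members. hsa-miR-128-3p shared a run of 8 bases with hsa-miR-27a-3p, offset by 1 base. It had 25, 41, 354 and 482 reads, and its glucose-free to complete-medium ratio was 1.93 (1.15 to 3.32) in pair 1 and 1.79 (1.56 to 2.06) in pair 2. Its pair 1 ratio was 0.975 with totals that omit hsa-miR-182-5p.

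The difference between the replicates, which are also the preparations, was not used to choose the members and was tested. Relative to the library totals, edgeR with the medium as a term called 3 of the 6 members higher in replicate 2 and 0 lower, where it called 9.64% of the 384 miRNAs tested higher and 7.55% lower. hsa-miR-23a-3p was higher by 5.13 ± 1.07 on the log2 scale (SE; edgeR adjusted p = 7.16e-05), hsa-miR-27a-3p by 3.17 ± 0.97 (adjusted p = 0.0114) and hsa-miR-24-3p by 2.82 ± 0.99 (adjusted p = 0.0349). The other 3 did not pass, with log2 differences of 2.13 ± 2.16 for hsa-miR-27a-5p, 1.79 ± 1.04 for hsa-miR-23b-3p and 0.73 ± 0.91 for hsa-miR-27b-3p (edgeR adjusted p = 0.608, 0.280 and 0.693). Of the other arms of these clusters, hsa-miR-23a-5p and hsa-miR-27b-5p were also tested and did not pass (edgeR adjusted p = 0.820 and 0.866). The median over the 6 members was 2.47 and that over all tested miRNAs 0.75. hsa-miR-182-5p and hsa-miR-451a took far more of replicate 1 than of replicate 2. With both left out of the totals these medians were 1.13 and -0.47. edgeR then called 26 of the 382 miRNAs tested higher in replicate 2 and 53 lower. On those totals hsa-miR-23a-3p (3.87) and hsa-miR-27a-3p (1.91) still passed, and hsa-miR-24-3p did not (1.55, edgeR adjusted p = 0.116), while hsa-miR-27b-3p was at -0.55.

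The ratios of paralogs that share a seed differed between the replicates. Inserts from 14 nt were kept in replicate 1, and a read that ends before base 19 could be assigned to either paralog, so the part of read assignment in these paralog ratios was not tested. The ratio of hsa-miR-23a-3p to hsa-miR-23b-3p was 26.0-fold (6.19 to 153) higher in replicate 2 than in replicate 1 for complete-medium EVs and 4.82-fold (1.66 to 12.5) higher for glucose-free EVs. The ratio of hsa-miR-27a-3p to hsa-miR-27b-3p was 7.99-fold (3.76 to 18.9) and 3.78-fold (2.30 to 6.28) higher. Within the chromosome 19 cluster, the ratio of hsa-miR-27a-3p to hsa-miR-23a-3p was 0.146 (0.0255 to 0.588) and 0.376 (0.191 to 0.710) times its replicate 1 value. That of hsa-miR-27b-3p to hsa-miR-23b-3p was 0.477 (0.190 to 1.05) and 0.478 (0.179 to 1.09) times, with intervals that held 1. hsa-miR-23c, with the same seed as hsa-miR-23a-3p, had a log2 difference of -5.16 ± 2.00 (edgeR adjusted p = 0.0576) from 6, 2, 1 and 1 reads. This call depended on the setting: hsa-miR-23c passed as lower in replicate 2 with TMM size factors (edgeR adjusted p = 0.0388), without hsa-miR-182-5p (0.0160), without hsa-miR-182-5p and hsa-miR-451a (-6.56, 0.00360), with miRNAs above 0 in all 4 libraries (5.27e-07) and with DESeq2 (0.0356), but not with miRNAs above 0 in any library (0.0689).

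Outside the clusters, the miRNA whose levels over the 4 libraries lay nearest to the members' mean profile was hsa-miR-30a-5p. It had 29, 59, 3374 and 3475 reads and a Euclidean distance of 0.185 on centred log2 CPM, among 75 candidates with at least 5 reads in every library. hsa-miR-425-5p followed at 0.832 and hsa-miR-93-5p, of the miR-106b/93/25 cluster, at 0.876. The members themselves lay at 0.357 (hsa-miR-24-3p) to 2.67 (hsa-miR-23a-3p), and hsa-miR-23b-3p, hsa-miR-27b-3p and hsa-miR-23a-3p lay farther from it than these 3 miRNAs. With 4 libraries in 2 preparations, this likeness cannot be told apart from a shared difference between the preparations.

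For comparison with other clusters, the glucose-free to complete-medium ratios of miR-106b/93/25 products ran from 0.737 to 3.20 in pair 1 and from 0.760 to 1.88 in pair 2, and those of hsa-miR-221-3p and hsa-miR-222-3p from 0.643 to 0.674 and from 1.35 to 1.53. The miR-106b/93/25 ranges include both arms of the miR-106b hairpin. In pair 1 hsa-miR-221-3p had 11 and 6 reads and hsa-miR-222-3p 7 and 4 (complete medium first), so depth limits the range of those miRNAs. The 3p arms of the chromosome 19 cluster with hsa-miR-24-3p ran from 3.54 to 6.29 in pair 1 and from 1.37 to 2.40 in pair 2, and with hsa-miR-27a-5p the pair 2 range was 0.512 to 2.40. The 3p arms of the chromosome 9 cluster with hsa-miR-24-3p ran from 1.03 to 3.54 and from 1.28 to 1.59. These ranges were set side by side without a test.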

How the data were processed

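The authors deposited, for each replicate, a table of miRNA read counts with the values scaled to the library total, headed CPM for one replicate and TPM for the other. These CPM and TPM values equalled the deposited counts scaled by the library total within the rounding of the files, so the counts were analysed. The submitters' processing notes name FastQC, cutadapt, Bowtie, Bowtie2, StringTie, edgeR and the hg38 build, with no versions. Reads were matched to miRBase by the authors; the handling of reads that fit several miRNAs is not given in the sources used here.

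Groups and replicate numbers came from the labels. Whether replicates were separate cultures is not stated, so p-values measure the spread between these libraries, which may be technical. The labels tie the replicate number to the library preparation, and deviations of same-numbered libraries correlated at 0.59, so the number was kept as a block. edgeR 4.0.16 (R 4.3.3; glmQLFit and glmQLFTest, two-sided, library totals) was fitted to the 384 miRNAs listed for both replicates and above 0 in at least 2 libraries, calling miRNAs with adjusted p under 0.05 and a log2 difference above 1 either way. The SE printed for an edgeR log2 difference was back-calculated, as its absolute size divided by the square root of the quasi-likelihood F statistic. DESeq2 1.42.0, limma 3.58.1 on log2(CPM + 1), TMM and other totals were alternatives. Intervals were 95% Wilson intervals for levels and exact conditional intervals for ratios (SciPy 1.17.1), and pooled ratios came from the Mantel-Haenszel method (statsmodels 0.14.6). The limit for a count of 0 was 3 reads. Since the reads carry PCR copies and no molecular identifiers, intervals and limits cover counting error only.

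The members and lists were chosen with earlier results of these data known. Named miRNAs were the 6 members, a list of their other arms and seed relatives, the 3 others nearest in profile and the products of 2 other clusters. The marker lists were hsa-miR-221-3p, hsa-miR-222-3p, hsa-miR-100-5p and hsa-miR-21-5p (basal), hsa-miR-200c-3p, hsa-miR-141-3p, hsa-miR-200b-3p, hsa-miR-429 and hsa-miR-205-5p (luminal), and hsa-miR-451a, hsa-miR-486-5p and hsa-miR-144-3p (red blood cell). hsa-miR-182-5p was named for its share of 1 library, and hsa-miR-449c-5p and hsa-miR-206 after their values were seen. Sequences and hairpin positions came from RefSeq (GRCh38.p14) and gene overlaps from GENCODE v29.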

Additional observations from a re-analysis of the deposited data

Results flagged for a closer look

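Several values went in opposite directions in the pairs, and the difference between the pairs was not tested for any of them. The change of hsa-miR-27a-3p over hsa-miR-23a-3p from complete-medium EVs to glucose-free EVs was 0.646 in pair 1 and 1.66 in pair 2, and the pair 1 value rested on 3 reads of hsa-miR-23a-3p in complete-medium EVs. The change of hsa-miR-24-3p over hsa-miR-27b-3p was 2.78 in pair 1 and 0.863 in pair 2. hsa-miR-23c had a glucose-free to complete-medium ratio of 0.393 in pair 1 (6 and 2 reads) and 1.32 in pair 2 (1 and 1 reads). hsa-miR-3074-3p had 1.18 in pair 1 (1 and 1 reads) and 0 in pair 2 (1 and 0 reads), which lies within counting error. hsa-miR-24-2-5p, listed for replicate 1 alone and in no comparison across replicates, was at 256 CPM (4 reads) in glucose-free EVs and at 0 reads in complete-medium EVs, where the 3-read limit was 163 CPM.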

How the results depend on the processing

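Of 149 alternative values for 37 results, 125 kept their direction, their side of the threshold or their size within the error. This rule was loose. A log2 difference between the media had only to keep its sign, a ratio to stay within the main interval, and a count could shift somewhat. The 125 thus include a fall from 3 to 2 members called in replicate 2 without hsa-miR-182-5p and hsa-miR-451a. They also include the pair 1 ratio of hsa-miR-23b-3p, 1.03 against 0.520 without hsa-miR-182-5p. Beyond those, the number of miRNAs that edgeR called between the media, 0, became 1 with totals that omit hsa-miR-182-5p (hsa-miR-449c-5p) and 1 with miRNAs above 0 in any library (hsa-miR-206); both names were given after their values were seen, and neither is a member. The number of members higher in both pairs went from 5 (background 31.8% of 154 miRNAs) to 3 without hsa-miR-182-5p (background 14.9%). It was also 3 with TMM and with DESeq2 size factors, and 5 in either pair alone. No background share was taken for these settings, so nothing is read from those counts. The median ratio over the 154 miRNAs was 1.58 in pair 1 and 0.980 in pair 2 on the library totals. The summed reads of the members gave a pair 1 ratio of 2.09, which became 1.17 with TMM and 1.06 without hsa-miR-182-5p, and a pair 2 ratio of 1.63, which became 1.53 with TMM. For single members, the log2 difference of hsa-miR-23b-3p between the media turned from 0.23 to -0.14 (TMM), -0.13 (without hsa-miR-182-5p) and -0.034 (DESeq2), and that of hsa-miR-27b-3p between the replicates from 0.73 to -0.55 without hsa-miR-182-5p and hsa-miR-451a. Each pair alone gave a change of hsa-miR-27a-3p over hsa-miR-23a-3p from 0.646 to 1.66, against 1.65 pooled, and of hsa-miR-27b-3p over hsa-miR-23b-3p from 1.23 to 1.24; the range over the first rests on replicate 2, without which it is 0.646. Against 3 members called higher in replicate 2, 5 of 6 had a ratio above 2 in the complete-medium libraries alone, as did 23.2% of the 384 miRNAs. In the glucose-free libraries alone 4 of 6 did, as did 19.8%. Counts of 0 in replicate 1 were set to the 3-read limit, which left hsa-miR-27a-5p uncounted in the glucose-free libraries. In the complete-medium libraries it was counted from 1 read (54.4 CPM, 9.60 to 308), below the 3-read limit of 163 CPM, against 160 CPM in replicate 2. Without the replicate block edgeR also called 0 miRNAs between the media, so the block changed no call there; the log2 difference of hsa-miR-23a-3p was 0.59 without it, against 1.35. Beyond the scalings, the cause of these shifts was not tested. With 3 to 38 reads per guide strand in complete-medium replicate 1, depth limits every pair 1 statement, and the library preparation cannot be told apart from the replicate.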
